A study of Mus musculus with 16 samples.

Results

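Resident macrophages of the peritoneal cavity are large, long-lived phagocytes that keep their identity through the transcription factor GATA6 and clear dying cells through TIM4, the phosphatidylserine receptor encoded by Timd4. They make complement C1q, the lubricating proteoglycan PRG4 and the lipid-oxidising enzyme 12/15-lipoxygenase (Alox15), and GATA6 is not a transcription factor of blood monocytes. Among 10 libraries of mouse blood cells, 4 held RNA of Timd4 at 1 TPM or more and the other 6 listed it at 0. TPM is a transcript abundance scaled by gene length and by the total of each library. The 4 were chow 1 and 2 and HFD+L-NAME 1 and 5, so the choice took 2 libraries from each of the groups it was applied to. Because the libraries were chosen by a measured value, every difference between the 4 and the 6 is given as a description, with no test.

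C57BL/6N mice were the source of all 16 libraries, made from total RNA of frozen and thawed PBMCs, the mononuclear fraction of peripheral blood. Controls on regular chow gave 5 libraries. A further 5 came from mice given a high-fat diet (HFD) for 15 weeks together with L-NAME, which blocks nitric oxide synthase, a model of heart failure with preserved ejection fraction. In the other 6, named HFD+L-NAME+NO2-OA and called treated below, nitro-oleic acid (NO2-OA) joined the same regimen for the final 4 weeks. None of these had entered the choice. The labels name blood as the only source, give no genetic alteration, age or sex, and do not say that each library is a different mouse, so p-values measure the spread between libraries, which may be technical. Whole read numbers recovered from the table ranged from 4.47 to 24.5 M reads a library, with 4.47 to 14.7 M reads in the 4. Genes without recovered reads held up to 20.7% of the TPM of a library, so these totals are incomplete. Genes of B cells, T cells and monocytes were present in all 16 libraries.

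The library names carry numbers in 2 separate runs, and the higher run holds exactly the 4 chosen libraries and HFD+L-NAME+NO2-OA 2. What a run stands for is not given in the sources used here. Within the 10 libraries the choice by Timd4 and the higher run are the same split and cannot be told apart. Protein-coding genes took 15.1% to 41.6% of TPM in the 4 and 22.1% to 49.8% in the 6.

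Timd4 was not the only gene of its kind in these libraries, and the start regions of 4 of the genes are printed to show the group that the results turn on. Timd4 chose the libraries, Retnla had the largest difference, and C1qb and C1qc were the genes whose levels followed Timd4 most closely. The windows run from 250 bases before to 50 bases after the annotated start, from RefSeq on build GRCm38.p6, 5′ to 3′ on the strand of the gene. Capitals mark each match to GAGGAA, the core letters of sites for PU.1, the master transcription factor of myeloid cells, on either strand (TTCCTC on the other one). They are Timd4 at chr11:46810549-46810848 (+), Retnla at chr16:48842359-48842658 (+), C1qb at chr4:136886151-136886450 (-) and C1qc at chr4:136892865-136893164 (-).
Timd4: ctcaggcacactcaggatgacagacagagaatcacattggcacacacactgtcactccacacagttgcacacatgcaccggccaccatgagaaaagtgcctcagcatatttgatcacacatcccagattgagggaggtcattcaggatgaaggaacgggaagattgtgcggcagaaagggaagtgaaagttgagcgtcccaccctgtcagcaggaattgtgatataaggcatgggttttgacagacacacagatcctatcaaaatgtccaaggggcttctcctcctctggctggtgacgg
Retnla: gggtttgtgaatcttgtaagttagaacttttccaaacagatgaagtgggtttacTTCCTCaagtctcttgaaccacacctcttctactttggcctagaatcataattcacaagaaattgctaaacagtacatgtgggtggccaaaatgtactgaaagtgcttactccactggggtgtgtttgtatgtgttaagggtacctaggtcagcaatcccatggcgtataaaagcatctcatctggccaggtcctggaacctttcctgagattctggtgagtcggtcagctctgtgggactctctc
C1qb: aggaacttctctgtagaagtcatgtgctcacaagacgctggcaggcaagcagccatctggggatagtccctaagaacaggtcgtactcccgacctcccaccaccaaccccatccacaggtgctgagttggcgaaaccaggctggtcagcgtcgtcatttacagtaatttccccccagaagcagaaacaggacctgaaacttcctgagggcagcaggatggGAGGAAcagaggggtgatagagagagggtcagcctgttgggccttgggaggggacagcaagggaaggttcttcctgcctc
C1qc: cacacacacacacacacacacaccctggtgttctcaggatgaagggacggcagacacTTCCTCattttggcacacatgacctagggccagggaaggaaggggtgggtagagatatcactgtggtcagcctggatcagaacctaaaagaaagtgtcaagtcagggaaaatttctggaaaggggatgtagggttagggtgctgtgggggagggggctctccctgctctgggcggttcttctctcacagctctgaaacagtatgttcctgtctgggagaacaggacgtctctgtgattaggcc
Retnla, C1qb and C1qc each had 1 match and Timd4 had 0 in this window. Of the 56 genes higher in the 4 that had a window in the table, 21 held the letters (37.5%), against 9289 of all 32851 windows of that length (28.3%). A match is a string of letters, and none of these windows was measured for binding here.

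Timd4 set the split, so its separation was fixed by the choice. Each of the other markers was higher in every one of the 4 libraries than in every one of the 6. Timd4 (ENSMUSG00000055546) was at 3.28 and 3.79 TPM in chow 1 and 2 and at 3.87 and 7.16 TPM in HFD+L-NAME 1 and 5, from 63 to 121 reads a library. It was listed at 0 in the other 12 libraries of the series, where 3 reads would have stood for 0.0665 to 0.258 TPM. Gata6 (ENSMUSG00000005836) was low but present, at 1.23, 0.983, 1.32 and 2.26 TPM in the same order. In the 6 it reached at most 0.0685 TPM, and its median there was 0.0258. The transcription factor thus rested on 53 to 120 reads in each of the 4 and on 8 reads in the 6 together.

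Prg4 (ENSMUSG00000006014), which encodes lubricin, was at 110, 87.3, 220 and 297 TPM in the 4, in that order. In the 6 its lowest value was 0.0830, its median 0.355 and its highest 0.447 TPM. Alox15 (ENSMUSG00000018924) was at 91.4, 86.0, 173 and 175 TPM in the 4, against 0.0991, 0.443 and 1.24 TPM as the lowest, median and highest of the 6. C1qa (ENSMUSG00000036887), a chain of the first complement component, was at 55.8, 58.5, 36.6 and 72.2 TPM, and was listed at 0 in 4 of the 6, with 0.173 TPM as the highest. For all 5 markers a wide gap lay between the groups, and no library had an intermediate value. The 5 genes whose levels ran most closely with Timd4 over the 10 libraries were C1qb (Pearson r 0.995), C1qc (0.994), Prg4 (0.992), Cxcl13 (0.992) and Cd5l (0.991). These correlations describe 2 clusters of libraries and carry no test.

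**Figure D1:**
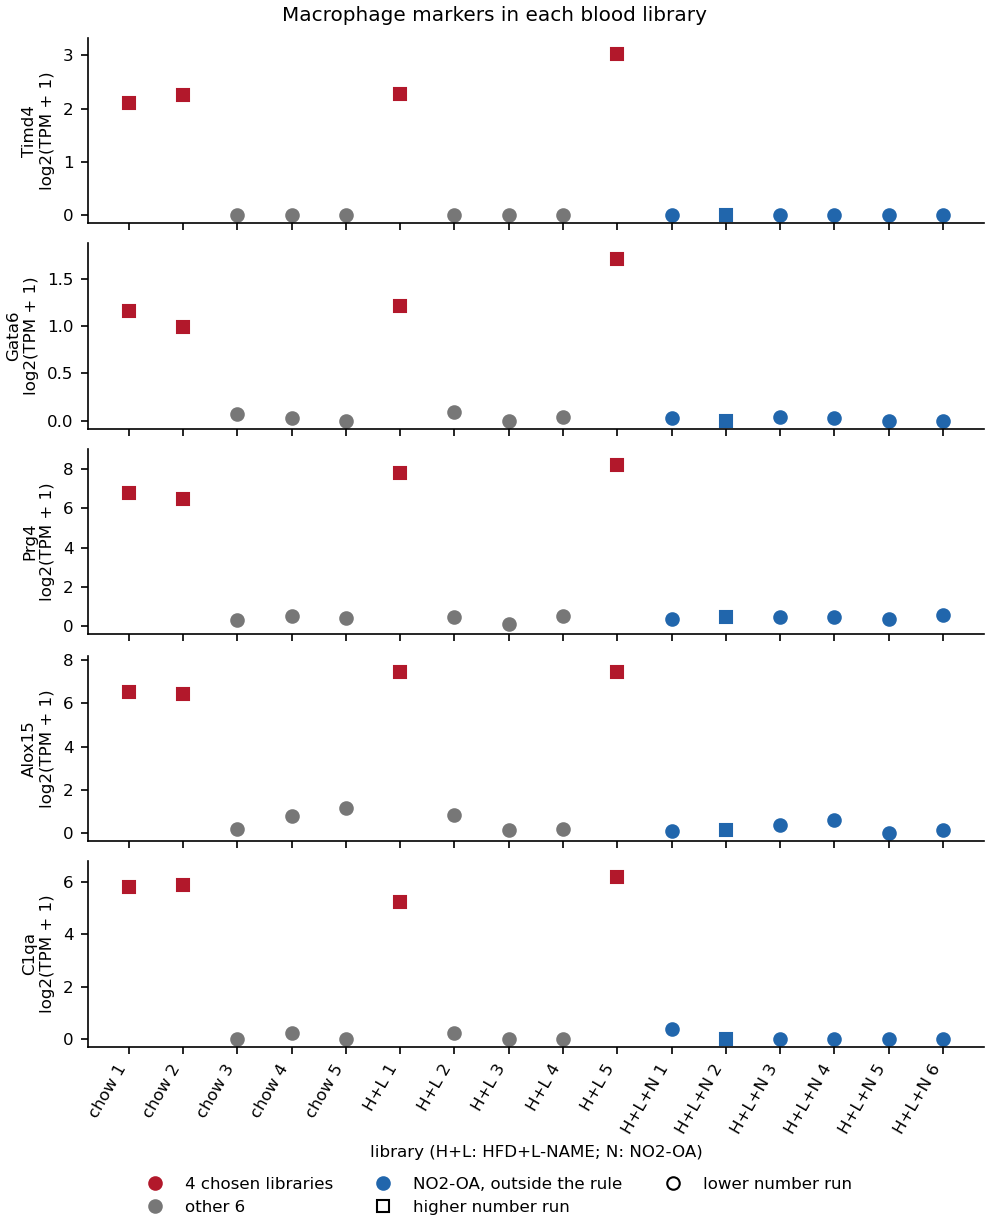
Level of the 5 markers, log2(TPM + 1), in each of the 16 libraries. Colour gives the 4 chosen libraries, the other 6 and the 6 NO2-OA libraries, and squares mark the higher run of library numbers. The 4 stand apart for every marker, for Timd4 by the choice itself. HFD+L-NAME+NO2-OA 2, the only other square, sits with the libraries without these genes.

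Across the table, 16861 genes reached 1 TPM in at least 3 of the 10 libraries. Of these, 92 had all 4 libraries above all 6 with a difference of mean log2(TPM + 1) of at least 1 (0.546%), and 11 had all 4 below all 6 by as much (0.0652%). Timd4, which set the split, is among the 92. The median difference over all genes was 0.00. The higher group was mostly protein-coding (80 of 92), and 10 of its genes were listed at 0 in all 6 libraries. Of all genes tested, 71 passed the filter through the 4 alone, with each of the 6 under 1 TPM, and 48 of these were among the 92. The filter itself favoured a difference for such genes, so their number supports nothing. The same holds for the counts and medians of the lists below that include them. Together the 92 genes summed to 1980, 2001, 2368 and 2896 TPM in the 4, which is 0.198% to 0.290% of all TPM. The same genes summed to between 119 and 471 TPM in the 6. Fewer cells of a type and less RNA per cell cannot be told apart in such bulk libraries.

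Of 27 genes listed for resident peritoneal macrophages, 23 passed the filter and 14 were among those higher in the 4, with a median difference of 1.41. Timd4, which set the split, is counted in these numbers. Beside the markers these were Slpi, Saa3, Cxcl13, Fcna, Vsig4, Tgfb2, Garnl3, Naip1 and Icam2. The summed level of the whole list overlapped between the groups (767 to 1558 TPM in the 4, 335 to 2283 in the 6), and the list holds genes that platelets carry too, such as the coagulation factor F5. F5 was at 91.1, 317, 284 and 82.4 TPM in the 4 and at 124 to 1054 in the 6. Rspo1, Apoc1, Nt5e and Tgm2 of this list overlapped as well. Arg1, Aspa and Rarb missed the filter, at 0.258 to 4.14, 0.833 to 1.35 and 0.507 to 1.07 TPM in the 4.

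In the complement list 8 of the 16 tested genes, of 19 listed, were higher in the 4, and the median difference was 1.03. The list summed to 457 to 579 TPM in the 4 and to 105 to 298 TPM in the 6, with no overlap. C1qb was at 50.1, 50.9, 61.0 and 122 TPM against at most 0.491, and C1qc at 30.8, 28.8, 30.8 and 52.6 TPM against 0 in all 6. These are the partner chains of C1qa in the C1q molecule. C4b, the next protein cleaved in the classical pathway, was at 37.9, 32.8, 72.3 and 66.4 TPM against at most 0.527. Reads of C4b and its near-identical neighbour C4a may have been split by the counting, and both were among the 92. Cfp, or properdin, which stabilises the alternative pathway convertase, was at 55.0, 59.2, 83.3 and 82.9 TPM against 3.44 to 24.1.
Complement receptors among them were the anaphylatoxin receptor C3ar1 and Itgam, the CD11b chain of complement receptor 3. C3ar1 was at 5.10, 4.26, 4.47 and 11.5 TPM against 0.525 to 2.78, and Itgam at 14.0, 13.3, 21.6 and 23.6 TPM against 2.72 to 11.4. The central component C3 overlapped, with 9.61 to 23.5 TPM in the 4 and 4.96 to 23.1 in the 6, and C2, Cfb and Serping1 missed the filter.

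Of 10 tested scavenger and lectin receptors, 5 were higher in the 4, with a list median of 0.69. Vsig4, the complement receptor CRIg of tissue macrophages, was at 7.35, 6.09, 3.94 and 15.2 TPM against 0 in all 6. Cd5l, a secreted scavenger protein of tissue macrophages, was at 19.1, 13.0, 20.9 and 28.9 TPM against at most 0.121. Both were therefore near or at 0 outside the 4. The class A scavenger receptor Msr1 was at 6.35, 6.74, 7.31 and 8.80 TPM against 0.461 to 3.77. The mannose receptor Mrc1 was at 2.19, 2.43, 1.24 and 1.60 TPM against at most 0.911. Marco, a bacterial scavenger receptor, was at 2.26, 3.32, 0.362 and 1.89 TPM, from 3 to 25 reads, against at most 0.108. Fcna, or ficolin A, a soluble lectin that binds microbial sugars, was at 20.2, 18.7, 7.79 and 24.2 TPM and listed at 0 in 5 of the 6.

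Among 15 tested genes of apoptotic cell uptake, only Timd4 and Mertk met the rule, Timd4 by the choice itself, and the list median was 0.13. Mertk, a receptor tyrosine kinase that binds dying cells through bridging proteins, was at 2.90, 1.75, 3.59 and 2.69 TPM against at most 0.147. Its relatives Axl (0.491 to 1.64 TPM in the 4) and Tyro3 (0.0198 to 0.390 TPM) missed the filter. Of the general macrophage list, 4 of 14 tested genes were higher: Adgre1, Mertk, Itgam and Apoe. Adgre1, which encodes the F4/80 antigen, was at 37.8, 35.6, 47.5 and 43.7 TPM against 4.45 to 16.0. Apoe, the apolipoprotein of macrophages and liver, was at 230, 227, 166 and 160 TPM against 27.4 to 151. Genes that monocytes share overlapped: Csf1r was at 32.2 to 56.5 TPM in the 4 and 16.8 to 57.9 in the 6, and Lyz2 at 1501 to 1967 and 450 to 2093 TPM. Among 15 tested macrophage transcription factors Gata6 alone met the rule, and the list median was 0.19.

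Of 17 tested cytokines and chemokines 3 met the rule, and the list median was 0.90. Cxcl13, the chemokine that draws B cells to serous cavities and follicles, was at 9.28, 30.4, 25.4 and 72.8 TPM and at 0 in all 6. Ccl24, a chemokine for eosinophils, was at 8.75, 5.35, 5.99 and 11.0 TPM and also at 0 in all 6. Cxcl1, a chemokine for neutrophils, varied widely, at 31.4, 4.51, 8.58 and 71.5 TPM, with 1.92 TPM as the highest of the 6. Other genes among the 20 with the largest difference are given one by one. Retnla, a secreted protein of alternatively activated macrophages, was at 172, 181, 62.5 and 137 TPM and at 0 in all 6, the largest difference of all genes (7.01). In the 6, 3 reads would have stood for 0.637 to 1.16 TPM of Retnla. Fn1, or fibronectin, had the highest mean of the 20 genes with the largest difference, at 275, 235, 390 and 378 TPM, and the 6 had 6.48, 40.5 and 62.5 as lowest, median and highest. Slpi, an inhibitor of neutrophil proteases, was at 147, 146, 380 and 346 TPM against 7.83 to 74.4. The acute phase protein gene Saa3 was at 16.1, 10.4, 12.0 and 34.3 TPM against at most 1.06. Tgfb2, a growth factor, was at 6.34, 3.68, 7.70 and 8.85 TPM against at most 0.123. The lysozyme gene Lyz1 was at 44.5, 48.2, 20.5 and 69.4 TPM against 0.784 to 3.43, though reads may be shared with its close copy Lyz2. The endothelin receptor gene Ednrb was at 14.4, 9.08, 15.9 and 21.6 TPM against at most 1.44.

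Lipid mediator genes separated at Alox15 and Ptgis, prostacyclin synthase, and at no other of 17 tested genes (list median 0.06). Ptgis was at 4.19, 3.22, 9.18 and 10.5 TPM and at most 0.0636 in the 6. Other genes of the list went the other way or overlapped: the platelet lipoxygenase Alox12 was at 46.6 to 312 TPM in the 4 and 153 to 1081 in the 6, and Ltc4s, leukotriene C4 synthase, at 11.3 to 19.5 and 0.792 to 12.1 TPM. In the coagulation list 2 of 14 tested genes met the rule, with a median of 0.02. F7, coagulation factor VII, was at 3.33, 3.38, 5.96 and 4.06 TPM against at most 0.255. Fabp4, a fatty acid binding protein of macrophages and adipocytes, and Apoe were the members of the lipid list that separated, of 22 tested. No gene of the 9 tested for haem and iron handling did.

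**Figure D2:**
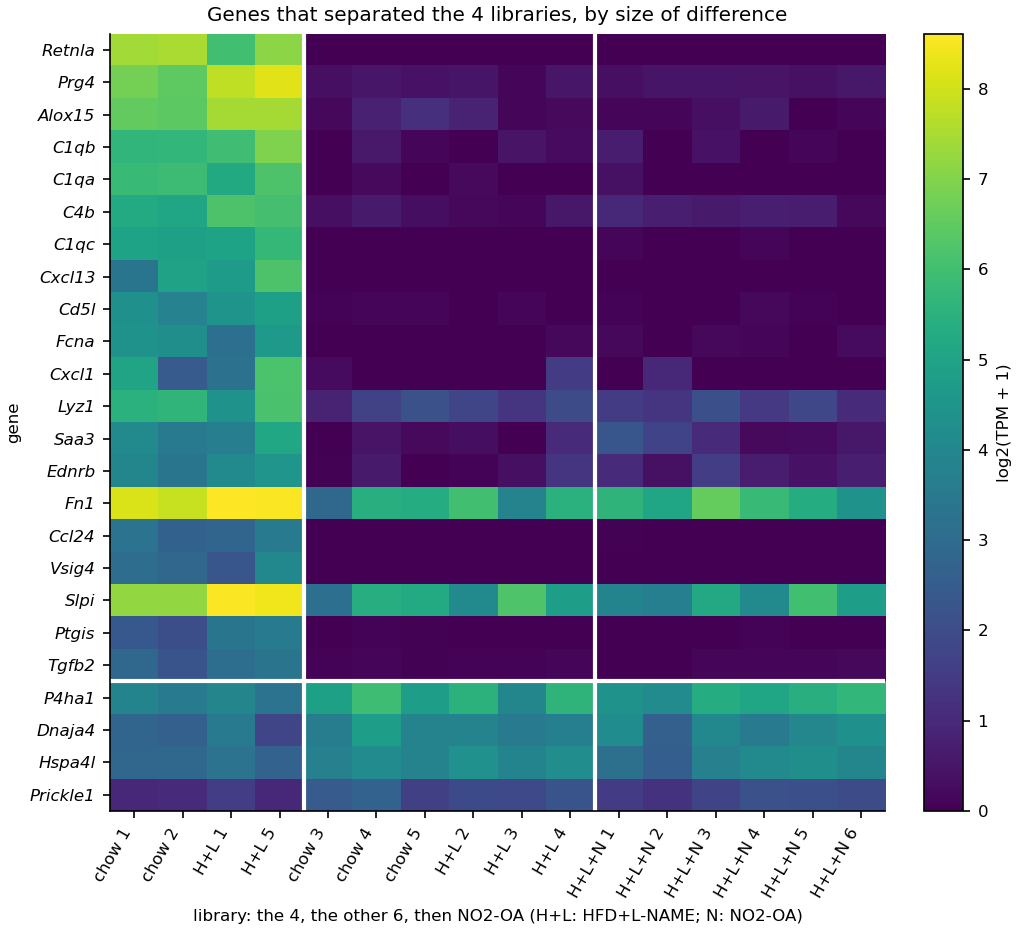
Level, log2(TPM + 1), of the 20 genes with the largest difference upward and the 4 named genes with the largest difference downward, in the 4 libraries, the other 6 and the 6 NO2-OA libraries, divided by white lines. Retnla, Cxcl13, Ccl24 and Vsig4 are at or near 0 outside the 4, while Fn1 and Slpi are also present elsewhere.

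Lists of other tissue macrophages share some of these genes. Cd5l, Marco, Vsig4 and Timd4 were the 4 of 6 tested Kupffer cell genes that separated. The median difference was 1.92 for this list and 1.41 for the resident peritoneal list. These 4 genes were under 1 TPM in each of the 6, so they passed the filter through the 4 libraries alone. The filter favoured a high median for that reason, and the lists are not ranked. Timd4, which set the split, is counted in both lists. Clec4f, which defines Kupffer cells, reached at most 0.0462 TPM in the 4. Of the alveolar macrophage list Marco and Fabp4 separated, while Siglecf and Car4, which define those cells, reached at most 0.893 and 0.0590 TPM in the 4. None of 3 tested red pulp macrophage genes separated, and the defining factor Spic was at 0.389 to 1.63 TPM in the 4 and 0.266 to 0.750 in the 6. Cbr2 and Mrc1 separated among 4 tested genes of LYVE1 macrophages, but Lyve1 itself overlapped (1.26 to 3.58 and 1.02 to 7.22 TPM), and Folr2 was at 0 in HFD+L-NAME 1. Of 10 tested genes of small, monocyte-derived peritoneal macrophages, Retnla and Fn1 separated, and the median was 0.29. Ccr2 of that list overlapped, at 4.49 to 16.1 TPM in the 4 and 1.82 to 20.2 in the 6.

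The cavity also holds B-1 cells, mast cells and a mesothelial lining. Zbtb32, a transcription factor of B-1 and memory B cells, was the 1 of 7 tested B-1 genes that separated, at 4.21, 6.78, 8.02 and 4.83 TPM against 1.09 to 3.08. Immunoglobulin segments fell outside the rule for naming genes and were singled out after their values were seen. Of 195 tested V segments 4 were higher in the 4 (2.05%, against 0.546% of all genes), and the median difference of V segments was 0.61. The 4 were Igkv14-126, Ighv11-2, Igkv4-91 and Ighv9-2. Ighv11-2 pairs with Igkv14-126 in the recurrent antibodies of mouse B-1 cells that bind phosphatidylcholine. Ighv11-2 was at 17.6, 52.5, 13.8 and 23.8 TPM against 1.46 to 9.37, and Igkv14-126 at 41.9, 120, 41.1 and 59.6 TPM against 2.61 to 29.4. Igkv4-91, the partner of Ighv12-3 in a further such antibody, was at 35.8, 71.6, 22.6 and 26.9 TPM against 4.92 to 21.7, while Ighv12-3 overlapped (9.47 to 54.9 and 1.07 to 12.1 TPM). Reads of similar V segments may have been split by the counting.

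Mast cell genes did not separate: 3 of 12 passed the filter and 0 met the rule. Tpsb2 was at 0 except for 0.158 TPM in HFD+L-NAME 1, and Mcpt4 at 0 except for 0.447 TPM in that library. None of 11 mesothelial genes passed the filter, and they summed to 0.717 to 2.24 TPM in the 4 and 0.167 to 0.818 TPM in the 6. Wt1 was at 0 in all 10 libraries, and Msln at 0 in all but chow 2 (0.121 TPM). No gene of the fibroblast list (at most 0.747 TPM in sum) or of the cardiac muscle list (at most 3.24 TPM in the 10) passed. The adipocyte list did move with the 4: it summed to 4.28 to 10.6 TPM there and to 1.65 to 3.90 TPM in the 6, with no overlap, and 2 of its 8 genes passed the filter, with a median difference of 0.75. Fabp4, which macrophages share, was the 1 that separated, at 4.23, 2.99, 5.61 and 4.28 TPM against 0.352 to 0.971. Of the genes that define adipocytes, Lep and Cidec were at 0 in all 10 libraries, Plin1 reached at most 0.0238 TPM and Adipoq at most 0.141 TPM. The part of these cells in the differences was not tested.

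Lists of blood cells overlapped between the 4 and the 6. Classical monocyte genes had a median difference of -0.01 and summed to 516 to 794 TPM in the 4 and 155 to 650 in the 6, with Fn1 as the 1 of 10 that separated. Median differences were 0.16 for non-classical monocytes, -0.20 for mature and -0.47 for immature neutrophils, 0.50 for B cells, -0.16 for T cells and -0.48 for NK cells, and no member met the rule. Platelet genes had a median of -1.58 and summed to 2127, 9204, 7336 and 1728 TPM in the 4, against 5195 to 37688 in the 6. Erythroid genes had a median of -1.35 and spanned 779 to 73745 TPM in the 4 and 3140 to 43022 in the 6. The part of platelet and red cell levels in the other differences was not tested.

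**Figure D3:**
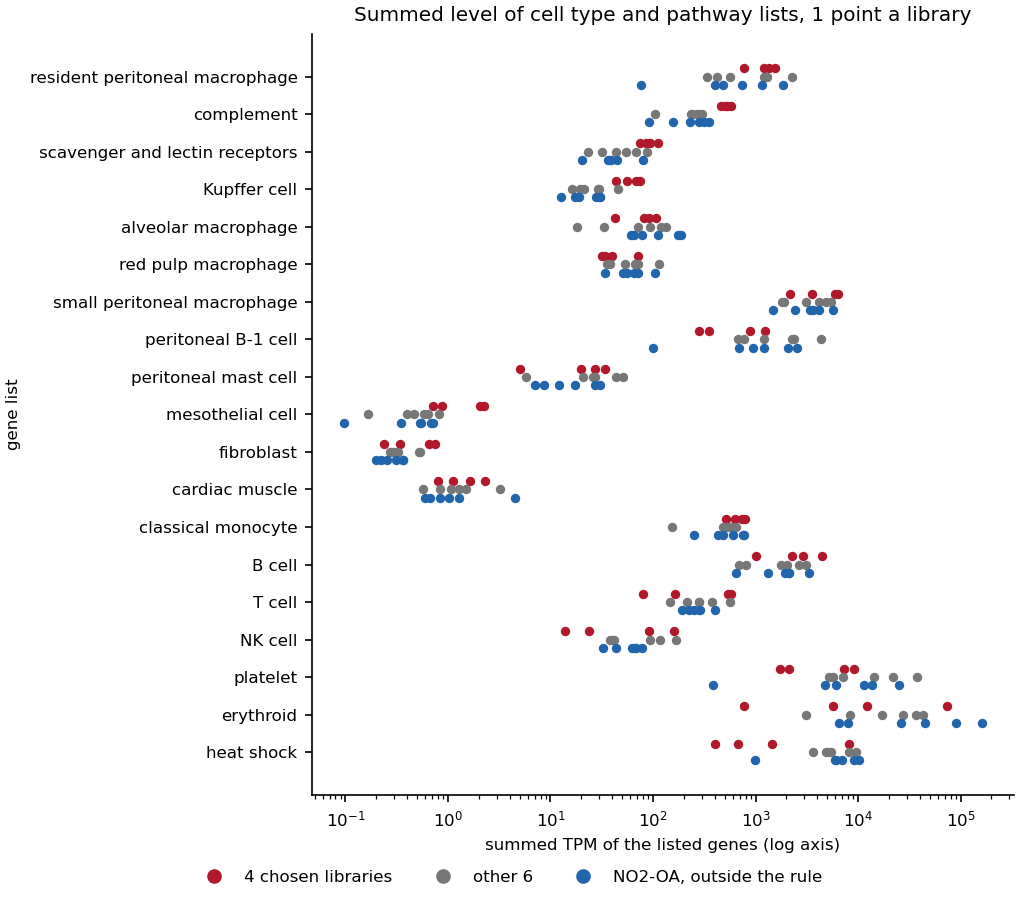
Summed TPM of 19 gene lists on a log axis, 1 point for each library, coloured as the 4 chosen libraries, the other 6 and the 6 NO2-OA libraries. The complement list separates the 4 from the other 6, the resident peritoneal list overlaps, and the mesothelial and fibroblast lists stay near or under 2.24 TPM.

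The programme was not identical in the 4 libraries. To compare its makeup within a library, each gene was set against the summed TPM of C1qa, C1qb and C1qc, which was 137 and 138 TPM in the chow pair and 128 and 247 TPM in the HFD+L-NAME pair (replicates 1 and 5). Timd4 and Gata6 kept nearly the same ratio to C1q, with the highest 1.25 and 1.44 times the lowest, though each was higher in both HFD+L-NAME libraries. Retnla stood at 1.26 and 1.31 times C1q in the chow pair and at 0.487 and 0.555 times in the HFD+L-NAME pair. Prg4 went the opposite way, with ratios of 0.805 and 0.632 in the chow pair and 1.71 and 1.20 in the HFD+L-NAME pair. Slpi (1.07 and 1.06 against 2.96 and 1.40) and Ptgis (0.0306 and 0.0233 against 0.0715 and 0.0425) were also higher in both HFD+L-NAME libraries. So was Alox15 (0.668 and 0.623 against 1.35 and 0.711). Fcna (0.147 and 0.135 against 0.0607 and 0.0978), Lyz1 (0.326 and 0.349 against 0.160 and 0.281) and Marco (0.0165 and 0.0240 against 0.00282 and 0.00765) were lower in both HFD+L-NAME libraries. Marco rested on few reads. Within C1q itself, C1qa over C1qb was 1.11 and 1.15 in the chow pair and 0.600 and 0.591 in the HFD+L-NAME pair. Cxcl1 and Cxcl13 varied by 8.87 and 4.35 times with no order by diet. C1qc, C4b, Cd5l, Saa3, Ednrb, Fn1, Ccl24, Vsig4, Tgfb2 and Cfp had no full order by diet either. With 2 libraries a side, an exact permutation test cannot give a two-sided p under 0.333, so these ratios stand as values. A full order by diet, in either direction, is thus expected by chance at a share of 0.333. These genes were picked, and the share in order over all genes was not computed. Nothing is read from how many were in order.

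**Figure D4:**
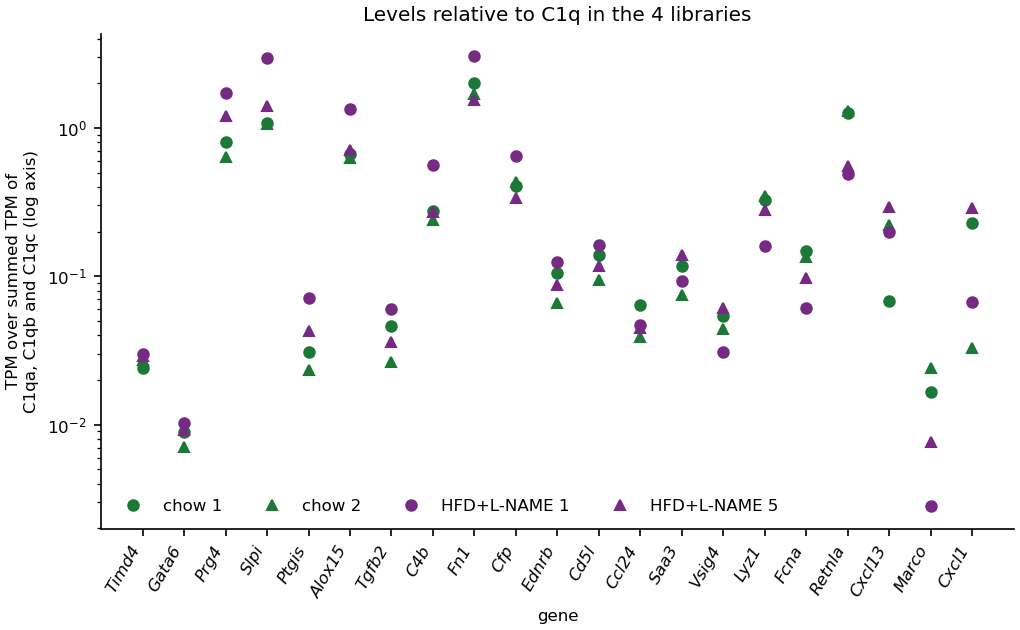
TPM of 21 genes divided by the summed TPM of C1qa, C1qb and C1qc in the same library, on a log axis, in the 4 libraries (green for chow, purple for HFD+L-NAME). Timd4 and Gata6 lie close together, Prg4, Slpi and Ptgis are higher in both HFD+L-NAME libraries, and Retnla, Fcna and Marco are higher in both chow libraries. Marco rests on few reads. With 2 libraries a side, such orders are common by chance and stand as values.

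The 6 HFD+L-NAME+NO2-OA libraries had no part in the choice. For each of the 92 genes a midpoint was set between the lowest of the 4 and the highest of the 6. Between 1 and 11 of the 92 lay on the upper side in a treated library: 11 in replicate 3, 4 in replicate 1, 3 in replicate 4 and 1 each in replicates 2, 5 and 6. Retnla, Cxcl13 and Vsig4 were listed at 0 in all 6 treated libraries. Prg4 reached at most 0.480 TPM, Alox15 0.532, Gata6 0.0254 and C1qa 0.302 TPM there. HFD+L-NAME+NO2-OA 2, which shares the higher run of library numbers, had 0 TPM of Timd4, Gata6, C1qa, C1qb, C1qc and Cd5l. It is the only treated library of that run, with 5.28 M recovered reads and 15.9% of TPM in protein-coding genes. The part of the run in the macrophage genes was not tested.

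The 11 genes lower in the 4 were placed in the treated libraries in the same way. HFD+L-NAME+NO2-OA 2 lay on the side of the 4 for 10 of the 11 and was the lowest of the treated libraries, or tied for it, for all 11. The other treated libraries lay there for 1 to 4. HFD+L-NAME+NO2-OA 2 also had the lowest protein-coding share of the treated libraries, 15.9%, and the fewest genes at 1 TPM, 13516. How often it was the lowest over all tested genes was not computed, so nothing is read from these counts. Of the 11, 4 are protein-coding genes: P4ha1, an enzyme that hydroxylates collagen, the co-chaperones Dnaja4 and Hspa4l, and Prickle1, a planar cell polarity gene. P4ha1 was at 13.9, 10.8, 14.1 and 8.76 TPM in the 4, at 14.6 to 59.9 in the 6 and at 16.97 in HFD+L-NAME+NO2-OA 2. Dnaja4 was at 6.04, 5.24, 10.5 and 2.51 TPM in the 4, at 11.0 to 26.6 in the 6 and at 5.22 in that library. Hspa4l was at 6.18, 6.35, 8.78 and 5.57 TPM in the 4, at 12.4 to 19.5 in the 6 and at 4.99 there. Prickle1 was at 0.930, 1.04, 1.97 and 0.971 TPM in the 4 and at 2.10 to 5.46 in the 6. These genes were chosen as lower in the 4, so only HFD+L-NAME+NO2-OA 2 gives values outside the choice. Dnaja4 and Hspa4l lay below the 6 in that library, while P4ha1 lay within their range. The part of the run in these genes was not tested.
In the heat shock list 0 of the 10 genes separated, and the median difference was -1.47. The platelet and erythroid lists had medians of similar size, -1.58 and -1.35. It summed to 671 and 405 TPM in the chow pair, to 8201 in HFD+L-NAME 1 and 1463 in replicate 5, to 3626 to 9601 TPM in the 6 and to 989 TPM in HFD+L-NAME+NO2-OA 2. HFD+L-NAME 1 thus lay within the range of the 6.

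The study asked how the regimen changed blood cells, and the choice left 2 libraries with the macrophage genes and 3 without in each of the chow and HFD+L-NAME groups. In the limma test of HFD+L-NAME against chow on log2(TPM + 1), 4 of 16861 genes passed a Benjamini-Hochberg adjusted p of 0.05 (0.0237%), all lower and none among the 92 or the 11. They were Gm23054, Gm13787, Gm25131 and AC122846.1, outside the rule for naming genes and given because they were so few. Of the 92 genes 71 had a difference above 0 and 21 below, with a median of 0.15, against a median of -0.28 over all genes, and the smallest adjusted p among them was 0.896. Prg4 averaged 39.7 ± 54.5 TPM in chow (SD, n = 5) and 104 ± 144 TPM under HFD+L-NAME (n = 5), a difference of 0.51 ± 1.09 (SE, limma adjusted p = 0.90). Alox15 differed by 0.20 ± 1.02, C1qa by -0.06 ± 0.91, Timd4 by 0.19 ± 0.47 and Gata6 by 0.16 ± 0.33, with limma adjusted p from 0.90 to 0.98. On the log2 scale each of these 5 differences was smaller than its standard error. Timd4 set the split, and the markers were high in 2 and low in 3 libraries of each group. Small differences with a wide spread follow from that division, so nothing is read from these p-values or from those of the 92.

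With the run of library numbers, the same split as the choice, as a covariate, 21 genes passed (0.125%), of which 0 were among the 92 or the 11. All 4 genes called without the covariate were among these 21. Of the fixed lists, 3 of 5 tested immature neutrophil genes and 2 of 10 heat shock genes rose with this covariate. The heat shock genes were Hspa1b, by 3.11 ± 0.59 (SE, limma adjusted p = 0.00023), and Hspa1a, by 3.05 ± 0.58 (0.00029), both with an adjusted p of 0.896 without the covariate. Hspa1a and Hspa1b are near-identical copies whose reads may have been split by the counting. Within the lower run alone they differed by 0.11 and 0.14, 0 of the 10 were called and the list median was -0.01, and within the 4 alone they differed by 7.60 and 7.42. Ngp, a neutrophil granule protein, differed by 2.62 ± 0.50 (SE, limma adjusted p = 0.00033), Ltf, lactoferrin, by 2.15 ± 0.46 (0.0040) and Camp, cathelicidin, by 2.14 ± 0.47 (0.0046). Without the covariate the same differences had limma adjusted p of 0.119, 0.115 and 0.191 and were not called. Ngp averaged 11.1 ± 9.99 TPM in chow (SD, n = 5) and 57.7 ± 49.4 TPM under HFD+L-NAME (n = 5). Within the lower run, 3 libraries of each group, 4 of 15717 genes passed (0.0255%) and Ngp differed by 0.75 ± 0.65 (limma adjusted p = 1.00), and within the 4 by 5.42 ± 0.69 (2.6e-11). Whether the runs differ in this was not tested.

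Among the 4 alone, 2 libraries of each diet, 58 of 14526 genes passed in limma (0.399%), and 0 of the 92 were among them. Their smallest adjusted p was 0.270. Prg4 differed by 1.37 ± 0.78 (SE, limma adjusted p = 0.27), Alox15 by 0.97 ± 0.77 (0.32) and Retnla by -0.92 ± 0.77 (0.34). HFD+L-NAME 5 was the library with the fewest recovered reads and the lowest protein-coding share, and the median of all genes in this comparison was -0.97. Of the 92 genes, 69 had a difference above 0 and 23 below in this comparison, with a median of 0.31. A count of 0 among 92 is near the share called over all genes, 0.399%. With 2 libraries a side, nothing is read from it.

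The treated group held no library with the macrophage genes, while its comparison group held HFD+L-NAME 1 and 5. Over all 16 libraries, 1 of 17434 genes passed in the treated group against HFD+L-NAME (0.00574%): Gm25131, higher by 6.37 ± 0.98 (SE, limma adjusted p = 0.017). It was listed at 0 in all 5 HFD+L-NAME libraries, so the size of this difference depends on the pseudocount, and voom on whole reads did not call it. Both this comparison and that of HFD+L-NAME against chow use the same HFD+L-NAME libraries. Of the 92 genes 90 had a difference below 0, with a median of -0.73 against 0.08 for all genes, and 0 were called. Since these genes were chosen as high in 2 of the 5 HFD+L-NAME libraries, nothing is read from that direction. Alox15 averaged 69.9 ± 95.2 TPM in HFD+L-NAME (SD, n = 5) and 0.183 ± 0.194 in the treated libraries (n = 6), and differed by -2.99 ± 1.26 (SE, limma adjusted p = 1.00). Prg4 differed by -2.97 ± 1.35 and C1qa by -2.27 ± 1.12, with the same adjusted p.

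Without HFD+L-NAME 1 and 5, an alternative added after the data were seen, 1 of 17248 genes passed (0.0058%), again Gm25131, and 46 of the 92 genes still passed the filter. Of these, 25 had a difference above 0 and 21 below, with a median of 0.01 against -0.10 over all genes tested. Alox15 then differed by -0.17 ± 0.98 (SE, limma adjusted p = 1.00), Slpi by -0.43 ± 0.71 against -1.81 ± 0.75 before, and Fn1 by 0.35 ± 0.80 against -1.04 ± 0.82. Prg4, C1qa, Timd4 and Gata6 no longer passed the filter. The 92 genes were chosen as high in the 2 libraries left out, so a smaller difference without them is given as a description and supports nothing.

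**Figure D5:**
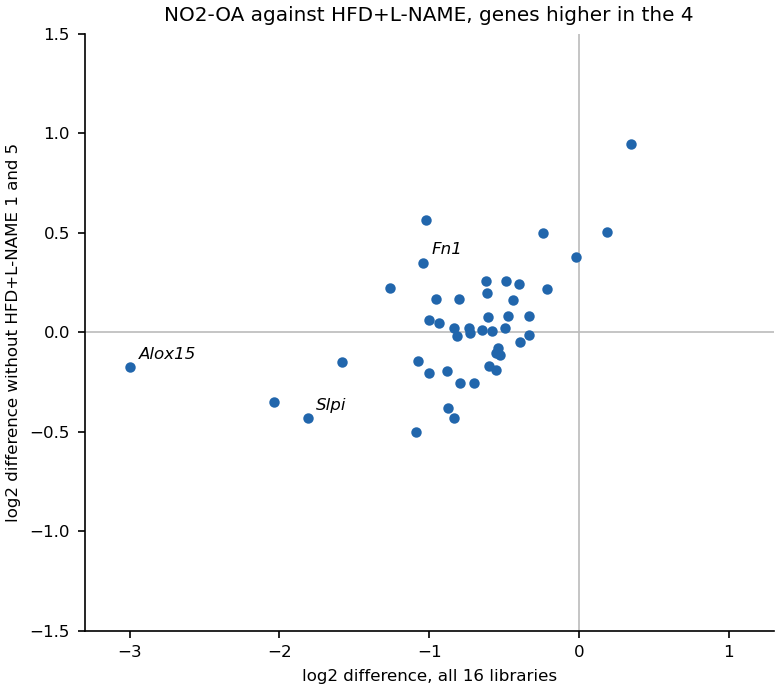
Difference in log2(TPM + 1), treated (HFD+L-NAME+NO2-OA) minus HFD+L-NAME, for the 46 genes higher in the 4 that were tested both ways, with all 16 libraries (x axis) and without HFD+L-NAME 1 and 5 (y axis). Most points lie left of 0 on the x axis and around 0 on the y axis (Alox15 at -2.99 and -0.17), a description, since the genes were chosen as high in the libraries left out.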

How the data were processed

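RNA of 16 libraries of mouse PBMCs was measured by random-primed sequencing. The authors used bcl2fastq, Trim Galore, HISAT2 and featureCounts with builds mm39 and hg38, per the submitters' processing notes, which give no versions. The deposited values are TPM per gene, set by the authors to the same total in each library. A gene in a library dominated by short or abundant RNAs therefore reads lower.

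The 10 chow and HFD+L-NAME libraries were divided by Timd4 at 1 TPM. Genes of at least 1 TPM in at least 3 libraries were used, as log2(TPM + 1). Genes separated when all 4 libraries lay above or below all 6 and the means differed by at least 1, with no test. The members, lists and tests were chosen with earlier results of these data known. Eligible for naming were the 5 markers and the 20 genes higher and up to 10 lower with the largest difference. So were the separating or most abundant members of each list, the 5 genes most like Timd4, and 3 genes of smallest p per group comparison. Left out of the rankings were gene models, pseudogenes, antigen receptor segments and genes averaging under 2 TPM. Not every eligible gene is named, among them those of smallest p in the treated group against HFD+L-NAME.

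Groups were compared by limma (version 3.58.1, R 4.3.3) with a variance trend, two-sided, Benjamini-Hochberg adjusted over all tested genes. HFD+L-NAME against chow used 10 libraries, and the treated group against HFD+L-NAME used 16. Alternatives were another pseudocount, filters and scalings, each library left out, the run of library numbers, a replicate block, and voom on whole reads. Those reads were recovered from the steps of the TPM values for 32626 of 32629 genes above 0, within a tolerance of 0.001, with some possibly a divisor of the true number. Intervals were not computed, and floors of 3 reads cover counting error only. Gene names came from the table and GENCODE M21, which matched 48486 of 51179 identifiers. No gene position was used apart from the RefSeq windows on GRCm38.p6. Tested on simulated data, the fit recovered 47.0% of genes changed by 2 on the log2 scale in HFD+L-NAME against chow and 79.0% for the treated group against HFD+L-NAME, and 6% and 8% of those changed by 1, with 10.2% and 3.33% of its calls false. Python 3.11.15, numpy 2.4.6, pandas 2.3.3 and matplotlib 3.10.9 were used. Some members of the lists are not reported here by name.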

Additional observations from a re-analysis of the deposited data

Results flagged for a closer look

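The summed level of each list and the 5 markers were examined in each of the 3 groups for a library far from the rest of its own group. Of 123 such sets 15 held one. Chance would give about 1 in 20 for independent sets, but these lists share genes and libraries, so no excess is read from the number.

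Chow 3 was low for the general macrophage list (591 TPM, nearest 1621), the lipid handling and lysosome list (629, nearest 1423), the alveolar macrophage list (17.96, nearest 70.9) and the classical monocyte list (155, nearest 476). HFD+L-NAME 5 was low for the lipid handling and lysosome list, at 874 TPM with 1503 nearest, and high for the hepatocyte list, at 11.2 TPM with 2.02 nearest. HFD+L-NAME+NO2-OA 2 was low for lipid handling and lysosome (586 TPM), haem and iron handling (645), eosinophil (9.07) and heat shock genes (989, with 5950 as the nearest). It was high for the cardiac muscle list, at 4.48 TPM with 1.29 nearest. These 3 libraries are also the ones with under 25% of TPM in protein-coding genes, and the part of this share in these values was not tested.

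Chow 2 stood out for mesothelial genes, at 2.24 TPM with 0.717 nearest, and for fibroblast genes, at 0.657 TPM with 0.295 nearest. Chow 1 was high for non-classical monocyte genes, at 758 TPM with 439 nearest. C1qa was at 0.302 TPM in HFD+L-NAME+NO2-OA 1, the library with the most recovered reads, and at 0 in the other 5 treated libraries.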

How the results depend on the processing

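The count of genes higher in the 4 libraries (92) was 44 with at least 5 TPM in 3 libraries, 148 with each library scaled to its protein-coding total and 35 with a difference of at least 2. Leaving out 1 library at a time gave 90 to 116. Of the 92, 89 were kept under the protein-coding total and 74 under the median of ratios, and the median of all genes then moved from 0.00 to 0.24 and -0.03. The count lower (11) was 6, 18 and 2 with 5 TPM, the median of ratios and a difference of 2, 19 without chow 3 and HFD+L-NAME 5 together (added after the data were seen), and 10 to 55 leaving out 1 library, the highest without HFD+L-NAME 1. Prg4, Alox15 and C1qa at 1 TPM or more, and Timd4 above 0, chose 4, 5, 4 and 4 libraries, and Gata6 at 1 TPM 3. Genes called in HFD+L-NAME against chow (4) numbered 0 with no filter, the median of ratios, the protein-coding total, voom and the added alternative without chow 3 and HFD+L-NAME 5, 19 with 5 TPM, 21 with the run as covariate and 58 in the higher run alone. They ranged from 1, without HFD+L-NAME 5, to 22, without chow 5. With the replicate block the count was 0; among 10 same-numbered pairs, 2 deviated together with a correlation above 0.1 (range -0.49 to 0.30), so the numbers were not taken as pairs. In that comparison Prg4 turned to -0.044 with voom, Alox15 to -0.12 with a pseudocount of 0.1 and -0.66 with voom, and C1qa to 0.39 with the median of ratios and 0.22 with the protein-coding total. Leaving out 1 library, Prg4 ranged from -0.69 to 1.49, Alox15 from -0.86 to 1.07, C1qa from -1.03 to 0.81 and Timd4 from -0.30 to 0.54. Without chow 3 and HFD+L-NAME 5 together they were -1.33, -1.57, -1.63 and -0.52. The smallest limma adjusted p of these 4 in these fits was 0.27. Genes called in the treated group against HFD+L-NAME (1) numbered 2 with a pseudocount of 0.1 and without the 4 libraries, 0 with the median of ratios, the protein-coding total and voom, and 0 to 2 leaving out 1 library. The cause of these changes was not tested. Gata6 and Marco rest on few reads, and at most 121 reads stand behind a Timd4 value.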

Other observations

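Further genes of the 92 were named after their values were seen. Wnt2, a secreted signalling protein, was at 1.20, 1.62, 1.48 and 0.910 TPM in chow 1 and 2 and HFD+L-NAME 1 and 5, and at 0 in all other 12 libraries, from 16 to 29 reads in each of the 4. Cgnl1, a protein of cell junctions, was at 4.92, 3.97, 6.87 and 8.11 TPM against at most 0.132 in the 6. Fgfr1, a receptor of fibroblast growth factors, was at 11.1, 5.62, 8.47 and 7.62 TPM against at most 0.857.

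Pltp, the phospholipid transfer protein, was at 28.9, 28.5, 30.3 and 37.6 TPM against 2.85 to 12.2. Trf, transferrin, was at 39.9, 30.3, 38.1 and 44.7 TPM against 2.16 to 11.3. Timp2, an inhibitor of metalloproteinases, was at 17.1, 14.8, 15.8 and 16.2 TPM against 2.18 to 6.66. Cmklr1, the receptor of chemerin, was at 7.15, 7.85, 9.71 and 10.1 TPM against 0.491 to 2.88. These values lay within a narrow range in the 4 libraries. Fcrl2 was at 1.35, 2.37, 1.13 and 1.75 TPM in the 4, at most 0.0438 TPM in the 6 and at 0 in the treated libraries.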
